A study of Mus musculus with 2 samples.

Results

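The genes described are those of the 5 oxidative phosphorylation complexes, taken by name from the rows of the count table: the mitochondrially encoded mt-Nd, mt-Co, mt-Atp and mt-Cytb genes, the nuclear Nduf, Sdh, Uqcr and Cox4 to Cox8 genes, and the Atp5 genes. The rule found 101 of 13774 genes, 13 of them encoded in mitochondrial DNA and 88 in the nucleus. Of the nuclear members, 79 are subunits of a complex. The other 9 match by name only: 7 are complex I assembly factors (Ndufaf1 to Ndufaf7), and Atp5s and Atp5sl are not counted as ATP synthase subunits here. Sums per complex use subunits alone.

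The counts come from 2 libraries of single cells made with the 10x 3′ kit, 1 from normal mammary gland (NEC, labelled normal endothelial cells) and 1 from EO771 tumors (TEC, labelled tumor endothelial cells). EO771 is a mammary tumor line of the same mouse strain, and 1000000 of its cells were injected in the mammary fat pad about 3 weeks before collection. Both groups are female C57BL6/J mice, 8 weeks old, with the genotype Cdh5Cre-ERT2:ZSGreenl/s/l and given tamoxifen, and the labels describe a sort of live ZSGreen+ cells from both tissues. The name of the deposited count table, however, carries the word "negs", which no label explains, so whether these cells are the ZSGreen+ sort is not known. The injection of 1000000 tumor cells and the 3 weeks of growth are given for both samples, NEC as well as TEC. The labels do not say how many animals were pooled, or whether the normal glands came from tumor-bearing mice. The Cdh5 promoter, which is active in endothelium, drives the Cre recombinase, so ZSGreen marks cells with a history of Cdh5 activity. The cells did not bear the label out: no cluster was endothelial by its markers. The 10 endothelial markers in the table summed to 35.1 UMIs per 1000000 UMIs (CPM, a share of the cells' UMIs) over all NEC cells and 63.0 CPM over all TEC cells, with Cdh5, Kdr, Emcn and Robo4 at 0 in NEC and Tek and Cldn5 at 0 in TEC.

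The kept cells were 1794 in NEC, with a median of 2259 UMIs, and 997 in TEC, with a median of 8594 UMIs. The shallowest NEC cell had 1157 UMIs and the shallowest TEC cell 6376, and 2 cell barcodes occurred in both libraries. With 1 library per group there is no replicate and no test, and tissue, animal, library and depth cannot be told apart. Every interval below is an exact 95% interval for counting error only.

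Oxidative phosphorylation is the last stage of respiration in the inner mitochondrial membrane. Complexes I, III and IV pass electrons from NADH to oxygen and pump protons, complex II feeds electrons in from succinate, and complex V (ATP synthase) lets the protons back through to make ATP. The core subunits of complexes I, III, IV and V are partly encoded in mitochondrial DNA, transcribed there as long polycistronic RNAs, while all other subunits, including the whole of complex II, are nuclear and imported. Resting lymphocytes, activated lymphocytes and macrophages are known to use this pathway to different degrees.

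Cells were grouped by clustering that left all 101 genes out, so that the groups are not set by them. The subunit set held 7 mitochondrially encoded and 36 nuclear genes for complex I, 4 nuclear genes for complex II, 1 and 8 for complex III, 3 and 16 for complex IV, and 2 and 15 for complex V. A cluster was called "X-like" from its markers, which left clusters 5, 10 and 12 without a name. The classes with cells in both libraries were the macrophage or monocyte-like cells (301 in NEC, 561 in TEC) and the T or NK-like cells (673 in NEC, 92 in TEC). Clusters 6, 7 and 12 also held at least 20 cells of each library.

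In every cluster with at least 20 cells in a library, mitochondrially encoded subunit UMIs outnumbered nuclear ones in NEC and were fewer than nuclear ones in TEC. Over all kept NEC cells there were 2.01 (1.997 to 2.031) mitochondrially encoded UMIs per nuclear subunit UMI, and over all TEC cells 0.708 (0.704 to 0.711). The 11 NEC values by cluster ran from 1.26 in cluster 6 to 2.95 in cluster 16, a B or plasma-like cluster. The 8 TEC values ran from 0.649 in cluster 9, macrophages led by interferon-induced Ifit genes, to 0.926 in cluster 6. The ranges by cluster did not overlap, but these sums pool cells of all depths. The 29 TEC cells of cluster 5 with 8000 to 16000 UMIs had 1.32, a value within the NEC range. Its 171 cells above 16000 UMIs had 0.667. NEC macrophages went from 1.865 at 1000 to 2000 UMIs to 1.19 at 4000 to 6000. At 6000 to 8000 UMIs macrophages had 1.23 in NEC and 0.722 in TEC. The part of depth was not tested.

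**Figure D1:**
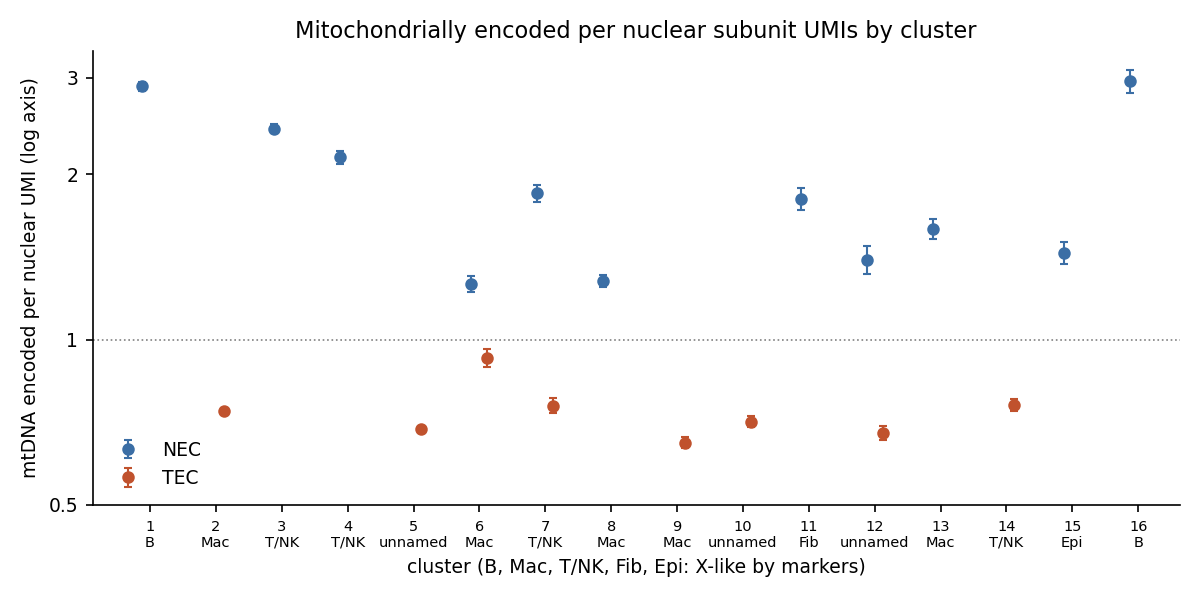
Mitochondrially encoded UMIs per nuclear subunit UMI (vertical, log axis) in each cluster with at least 20 cells of a library (horizontal), NEC in blue and TEC in orange, bars giving 95% counting intervals. All NEC points lie above 1 and all TEC points below it, with 1.26 and 0.926 as the nearest pair, both in cluster 6. Each point pools cells of all depths.

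The cell classes of the normal gland differed among themselves in both parts. B or plasma-like cells had the highest mitochondrially encoded sum, 38129 CPM, and a low nuclear one, 13161 CPM. T or NK-like cells followed with 32054 and 14351 CPM. Macrophage or monocyte-like cells had 26488 and 20334 CPM. The 31 epithelial or mammary-like cells had 28130 and 19562 CPM, with a nuclear interval that overlaps the one of macrophages, and the 73 fibroblast-like cells had 22237 and 12344 CPM, the lowest of both. The counting intervals of these classes did not overlap in the mitochondrially encoded sum. Complex IV led the ratio of mitochondrially encoded to nuclear UMIs in all 5 classes, from 1.99 in macrophages to 4.24 in B or plasma-like cells, and complex III had the lowest ratio in all but the epithelial cells, where complex I was at 1.01 and complex III at 1.04. The intervals of complexes I and III overlapped in the B or plasma-like, fibroblast-like and epithelial cells.

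Between libraries, the mitochondrially encoded subunits were lower in TEC macrophages in each of the 4 complexes that have them. Complex I transcripts made up 5043 CPM of the NEC and 2328 CPM of the TEC macrophages, a ratio of 0.462 (0.447 to 0.477). Cytochrome b of complex III went from 1672 to 948 CPM (ratio 0.567, 0.538 to 0.599) and the complex IV subunits from 13969 to 8611 CPM (0.616, 0.605 to 0.628). The complex V subunits were nearest to 1, with 5804 and 4325 CPM and a ratio of 0.745 (0.725 to 0.766). The 4 intervals did not overlap, the nearest bounds being 0.599 for complex III and 0.605 for complex IV. Most NEC cells of this class came from clusters 8, 6 and 13 (106, 97 and 71 cells) and most TEC cells from clusters 2 and 9 (421 and 106 cells). Without cluster 9, which only TEC has, the ratio over all mitochondrially encoded subunits was 0.642, against 0.612 with it.

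In T or NK-like cells complexes IV and V had nearly the same ratio. Complex I again had the lowest, but here its interval overlapped that of complex III. The complex I transcripts had a ratio of 0.453 (0.435 to 0.471), from 6683 to 3026 CPM. Cytochrome b had 0.489 (0.459 to 0.520), complex IV 0.614 (0.5996 to 0.628) and complex V 0.615 (0.596 to 0.635). Here NEC was made mostly of clusters 3 and 4 (359 and 220 cells, led by Lef1 and other genes of unstimulated T cells) and TEC of cluster 14 (62 cells, led by granzymes) and cluster 7 (28 cells). The proliferation markers of this class summed to 137.5 CPM for NEC and 1090 CPM for TEC, and the macrophage markers to 201 and 4939.5 CPM. Malat1, a nuclear noncoding RNA, was at 26354 and 15460 CPM; their part in the result was not tested.

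**Figure D2:**
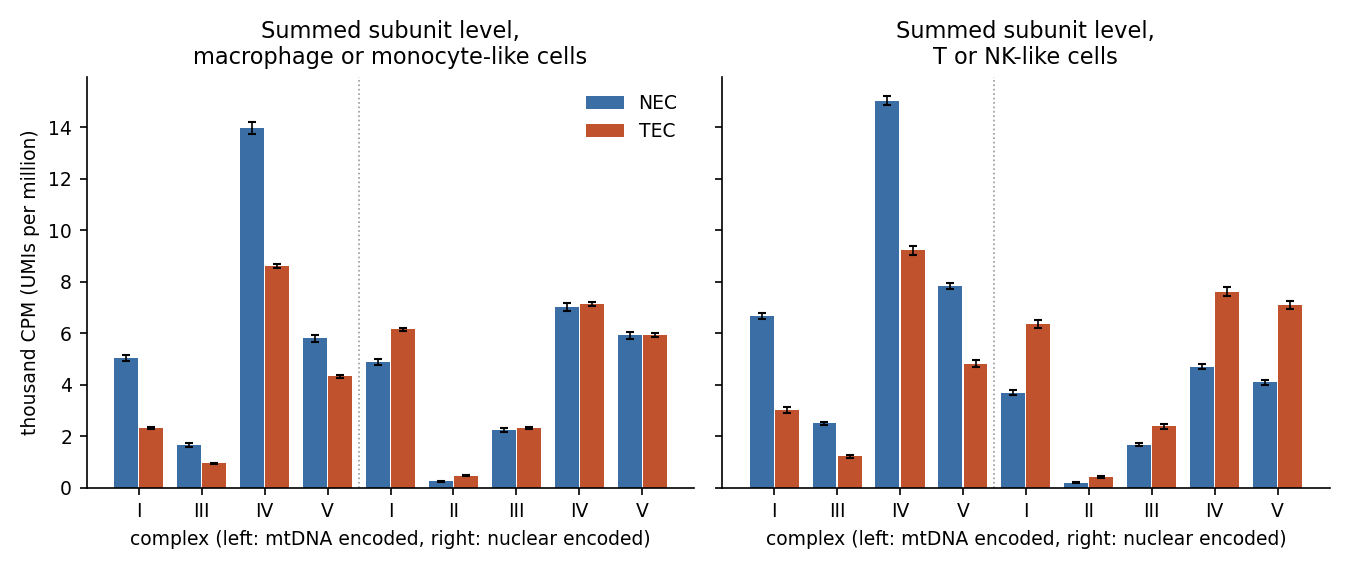
Summed subunit level (vertical, CPM in units of 1000) by complex (horizontal), mitochondrially encoded left of the dotted line and nuclear right of it, in macrophage or monocyte-like cells (left panel) and T or NK-like cells (right panel), with 95% counting intervals. TEC is lower in every mitochondrially encoded bar; nuclear bars are higher in TEC T or NK-like cells, while the macrophage nuclear sums differ by a ratio of 1.08 that falls below 1 under other scaling or at matched cell depth (0.854 and 0.947).

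Each of the 13 mitochondrially encoded members was looked at alone. A ratio was computed for members with at least 50 UMIs over both sums, and a member was called higher or lower when its ratio was at least 2 in that direction and the counting interval excluded 1 (the size rule, which is not a test). In macrophages, 12 members had enough UMIs, all 12 were below 1 and 6 were lower by the size rule, against 7.03% of all 6434 genes measured; none was higher, against 23.1% of all genes. In T or NK-like cells all 12 were again below 1 and 8 were lower, against 10.6% of 4926 genes; none was higher, against 25.3%. The other one, mt-Nd6, encoded on the opposite strand to the rest, had 8 UMIs in NEC and 22 in TEC macrophages, and 18 and 4 in T or NK-like cells.

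The lowest ratios belonged to 3 members of low level. mt-Nd4l, a small complex I subunit, stood at 103 CPM in the macrophages of NEC and 21.1 CPM in those of TEC, giving 0.205 (0.156 to 0.270). mt-Atp8, the small subunit of ATP synthase, stood at 74.2 and 17.0 CPM, giving 0.229 (0.167 to 0.315). mt-Nd3 stood at 265 and 66.8 CPM, giving 0.252 (0.215 to 0.296). These 3 were at the bottom in T or NK-like cells too, at 0.259, 0.211 and 0.268. The other complex I genes followed: in macrophages mt-Nd2 had a ratio of 0.356, mt-Nd5 of 0.447, mt-Nd1 of 0.487 and mt-Nd4 of 0.541, and in T or NK-like cells 0.386, 0.392, 0.485 and 0.483, the last pair with overlapping intervals.

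The abundant transcripts differed less. mt-Atp6, the proton channel subunit of ATP synthase, had 5730 CPM in the NEC and 4308 CPM in the TEC macrophages (ratio 0.752, 0.731 to 0.773), and 7784 and 4812 CPM in T or NK-like cells (0.618, 0.599 to 0.638). The catalytic cytochrome oxidase subunits mt-Co1, mt-Co2 and mt-Co3 had ratios of 0.583, 0.657 and 0.635 in macrophages and 0.605, 0.712 and 0.572 in T or NK-like cells. mt-Cytb had 0.567 and 0.489. Of the UMIs of the 13 genes in macrophages, mt-Atp6 took 21.6% (21.2 to 22.1) in NEC and 26.6% (26.3 to 26.9) in TEC, while mt-Nd1 took 9.60% and 7.64% and mt-Nd2 2.77% and 1.61%. The 3′ kit counts 1 tag per transcript, so these shares are not scaled by length.

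**Figure D3:**
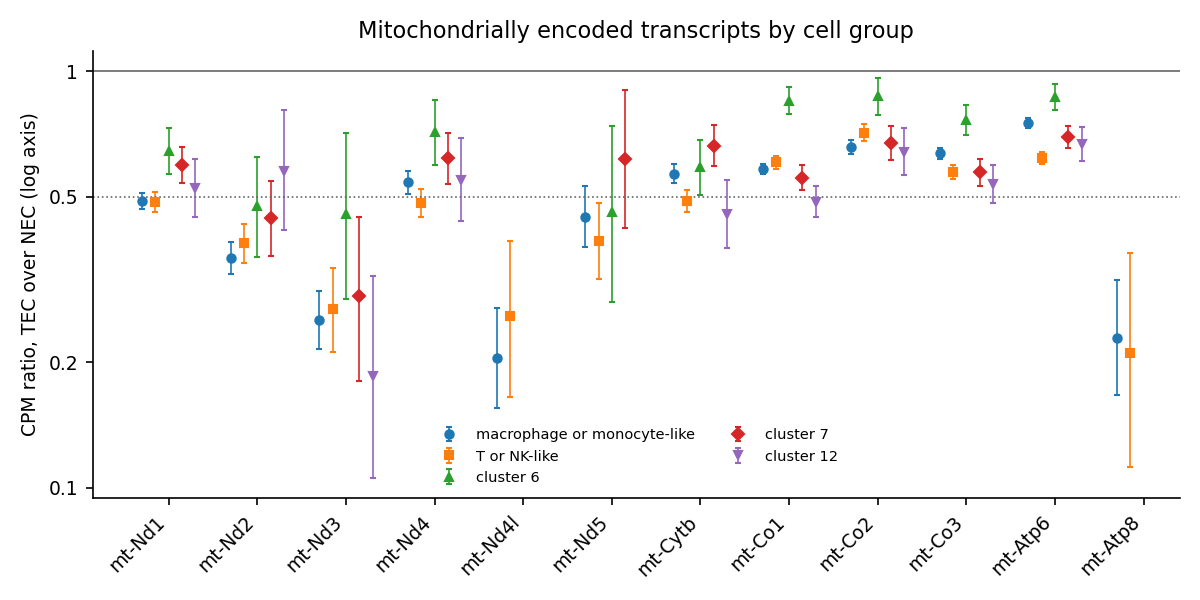
Ratio of CPM, TEC over NEC (vertical, log axis), for the 12 mitochondrially encoded members with at least 50 UMIs (horizontal) in 5 groups of cells, with 95% counting intervals; the dotted line marks 0.5. Every point lies below 1, and mt-Nd3, mt-Nd4l and mt-Atp8 lie lowest in macrophage or monocyte-like and T or NK-like cells.

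Both mt-Nd4l and mt-Atp8 are the first frames of shared messenger RNAs and overlap the frame behind them on the same strand. mt-Nd4l ends 7 bases inside mt-Nd4 (chrM:10167-10173) and mt-Atp8 ends 43 bases inside mt-Atp6 (chrM:7927-7969, plus strand, GRCm38). The shared stretch is shown because it belongs to a gene with a ratio of 0.229 and to one with a ratio of 0.752 in the same cells.
mt-Atp8 and mt-Atp6 shared bases: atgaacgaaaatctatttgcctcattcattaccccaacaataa
Reads that fall within these bases cannot be given to 1 gene, and how they were counted is not given in the sources used here, so the split between the 2 members of each pair is uncertain. Both members of a pair lie on 1 messenger RNA, so the low ratios of mt-Nd4l and mt-Atp8 are not those of separate transcripts. mt-Nd5 and mt-Nd6 overlap by 14 bases on opposite strands.

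The nuclear members differed in how they compared in the 2 classes. Over all 79 subunits the sum was 14351 CPM in NEC and 23895 CPM in TEC T or NK-like cells, a ratio of 1.67 (1.64 to 1.69). Among macrophages it was 20334 and 22020 CPM, a ratio of 1.08 (1.07 to 1.10), which turned to 0.854 with a trimmed-mean scaling, 0.983 with NEC cells of at least 4000 UMIs and 0.947 among cells with 6000 to 8000 UMIs in both libraries. Of 79 nuclear members measured in macrophages, 10 were higher by the size rule, against 23.1% of all genes, and 1 was lower, against 7.03%. The median log2 ratio of these nuclear members was 0.37, beside 0.36 for all genes. In T or NK-like cells, 24 of 77 were higher and 0 lower, against 25.3% and 10.6% of all genes, and 73 of the 77 had a ratio above 1. Their median log2 ratio was 0.85, beside 0.29 for all genes, so the median gene was above 1 as well. The trimmed-mean scaling lowers every log2 ratio by 0.34 in macrophages and by 0.32 in T or NK-like cells. With it, 3 of all 91 members measured in macrophages were higher and 13 lower, in place of 10 and 7. Of all 6434 genes, 876 were then higher and 810 lower. In T or NK-like cells 10 of 89 members were higher and 11 lower, in place of 24 and 8. Of all 4926 genes there, 818 were higher and 831 lower.

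Macrophage marker UMIs were present in the TEC T or NK-like cells after doublet calls were removed. The highest share of macrophage marker UMIs in 1 cell was 0.318% in NEC and 2.325% in TEC. With only the cells at or below 0.1%, 653 in NEC and 37 in TEC, the nuclear ratio was 1.83 and the mitochondrially encoded ratio 0.599. In that subset 34 members were higher and 5 lower by the size rule, against 24 and 8 in all cells of the class. There 87 members were measured, and of all 3988 genes measured 886 were higher and 576 lower.

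Within complex I, the 7 core subunits that carry the redox centres were all above 1 in both classes. The median of all genes was above 1 too, at a log2 ratio of 0.36 in macrophages and 0.29 in T or NK-like cells. Ndufv2, an iron-sulfur subunit of the NADH-oxidising arm, had 50.03 CPM in the NEC and 126 CPM in the TEC macrophages, a ratio of 2.52 (1.92 to 3.36), and 65.3 and 142 CPM in T or NK-like cells (2.18, 1.71 to 2.77). Ndufs3 was at 43.1 and 87.9 CPM in macrophages (2.04, 1.52 to 2.79) and had a ratio of 1.81 in T or NK-like cells. The core subunits had a median ratio of 1.70 in macrophages and 1.81 in T or NK-like cells.

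Of the 29 accessory subunits of complex I, which surround the core, 4 were higher in macrophages, against 23.1% of all genes, and 11 in T or NK-like cells, against 25.3%. Their ratios ran from 0.605 to 3.66 and from 0.738 to 2.82. The calls per complex that follow stand against the same shares of all genes. Ndufs4, needed for a stable NADH-oxidising arm, had 41.4 CPM in the NEC and 152 CPM in the TEC macrophages, a ratio of 3.66 (2.73 to 5.01), and 46.6 and 112.5 CPM in T or NK-like cells (2.41, 1.83 to 3.20). Ndufa9 was at 15.5 and 56.4 CPM in macrophages (3.63, 2.25 to 6.22) and at 34.9 and 59.1 CPM in T or NK-like cells (1.70). Both had the highest ratios of all nuclear members measured in macrophages, while among the accessory subunits of T or NK-like cells the highest were Ndufb7 (121 and 340 CPM, ratio 2.82), Ndufc1 (2.81) and Ndufb9 (112 and 306 CPM, ratio 2.72).

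The complex I members with most UMIs were mostly nearer to 1. Ndufa2 was at 455 and 448 CPM in macrophages, a ratio of 0.985 whose interval of 0.895 to 1.09 includes 1, and at 332 and 430 CPM in T or NK-like cells (1.29, 1.15 to 1.46). Ndufa7 had ratios of 1.12 and 1.99, and Ndufb9 of 1.40 in macrophages. Ndufa6, of the LYR protein family, was below 1 in both, at 415 and 251 CPM in macrophages (0.605, 0.544 to 0.674) and at 283 and 209 CPM in T or NK-like cells (0.738, 0.629 to 0.864); it and Ndufa1 (0.777 in macrophages) are named after their values were seen. Among the assembly factors, Ndufaf3 was higher in both classes (3.26 and 2.17) and Ndufaf7 was lower in macrophages, 17.3 against 7.45 CPM (0.432, 0.242 to 0.789), the only nuclear member to be so. Ndufaf1, Ndufaf5 and Ndufaf6 had too few UMIs in both.

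Complex II, the succinate dehydrogenase shared with the citric acid cycle, had the largest ratio of the 5 nuclear sums in both classes, at the lowest level. It was at 248 and 464 CPM in macrophages (1.87, 1.65 to 2.12) and at 191 and 429 CPM in T or NK-like cells (2.25, 1.96 to 2.58). Sdhb, the iron-sulfur subunit, was at 126 and 224 CPM in macrophages (1.78) and at 58.9 and 203 CPM in T or NK-like cells, a ratio of 3.45 (2.74 to 4.35), the highest of all nuclear members measured there. The membrane anchor Sdhd was higher in both classes (2.06 and 2.54), and the other anchor, Sdhc, in macrophages (2.51) but with 1.91 in T or NK-like cells. Sdha, the flavoprotein, had the lowest ratio of the 4, 1.42 in macrophages and 1.10 in T or NK-like cells, where its interval of 0.814 to 1.47 includes 1.

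Complex III, the cytochrome bc1 complex, split in macrophages. Uqcrc1, a core protein, was higher, at 58.7 and 131.5 CPM (2.24, 1.74 to 2.92), and Uqcrc2 and Uqcrb had ratios of 1.99 and 1.90. Uqcrh, the acidic hinge protein, was at 677 and 430 CPM (0.635, 0.584 to 0.690), and Uqcr10 and Uqcr11 stood at 0.880 and 0.865. For T or NK-like cells, Uqcrc1 (2.23) and Uqcrb (2.03) were higher, Uqcrq was at 229 and 382 CPM (1.67), and Uqcrh had a ratio of 0.938 whose interval reaches 1.03. Of the 8 genes, Uqcrh had the lowest and Uqcrc1 the highest ratio in both classes.

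Complex IV, cytochrome c oxidase, had no nuclear subunit that met the size rule in macrophages, where the 12 measured lay between 0.605 and 1.45. Cox4i1, its most counted nuclear subunit, had 1244 CPM on the NEC side and 1168 CPM on the TEC side (0.939, 0.886 to 0.996). T or NK-like cells differed: Cox5a was at 177 and 509 CPM (2.88, 2.52 to 3.30), Cox8a at 458 and 1012.5 CPM (2.21), Cox7a2 at 241.5 and 522.5 CPM (2.16) and Cox7c at 422 and 868 CPM (2.06), all higher by the size rule, and Cox4i1 was at 848 and 1175.5 CPM (1.39). Cox7a2l, known for joining complexes III and IV into supercomplexes, went the other way from its paralogue Cox7a2 in both classes: 521 and 315 CPM in macrophages (0.605, 0.5496 to 0.666) and 779 and 527 CPM in T or NK-like cells (0.677, 0.613 to 0.746).

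The tissue-restricted isoforms of complex IV were near the limit of detection. Cox7a1, known from muscle, had 10 UMIs over all NEC and 38 over all TEC cells, 1.93 and 2.32 CPM, where Cox7a2 had 284.5 and 401.5 CPM. Cox6b2, known from testis, had 22 and 58 UMIs, 4.24 and 3.55 CPM, where Cox6b1 had 376 and 671 CPM. Cox6a2, the muscle and heart form, had 0 UMIs in NEC, which allows up to 0.578 CPM, and 25 in TEC, 1.53 CPM, of which 14 lay in macrophages and 7 in cluster 12; Cox6a1 had 356 and 434 CPM. Ndufa4l2, a hypoxia-inducible paralogue of the complex IV subunit Ndufa4, had 0 UMIs in NEC and 16 in TEC, 15 of them in cluster 5. These last 2 genes have too few counts for a ratio.

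Complex V also had no nuclear subunit called in macrophages. As given for complex I, the median of all genes was above 1 in both classes. Of its 15, 9 were above 1, led by the catalytic beta subunit Atp5b at 299 and 507 CPM (1.69, 1.51 to 1.90), and 6 were below, lowest Atp5e, the epsilon subunit, at 1056 and 641.5 CPM (0.608, 0.568 to 0.650). Among T or NK-like cells all 15 were above 1 and 3 were higher, a share below the 25.3% of all genes: Atp5j, coupling factor 6, at 166 and 520.5 CPM (3.13, 2.73 to 3.59), Atp5f1, subunit b of the stator, at 132.5 and 409 CPM (3.09, 2.64 to 3.61), and Atp5c1, the gamma subunit of the rotor (2.27). The 3 genes for the c-ring subunit, whose mature proteins are identical, differed: in macrophages Atp5g1 had a ratio of 1.56, Atp5g2 of 0.722 and Atp5g3 of 0.879, with Atp5g2 the most counted in NEC at 524.5 CPM. The T or NK-like ratios were 1.997, 1.74 and 1.52. Atp5l, the subunit g, was at 913 and 820 CPM in macrophages (0.898) and at 429 and 783 CPM in T or NK-like cells (1.82).

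**Figure D4:**
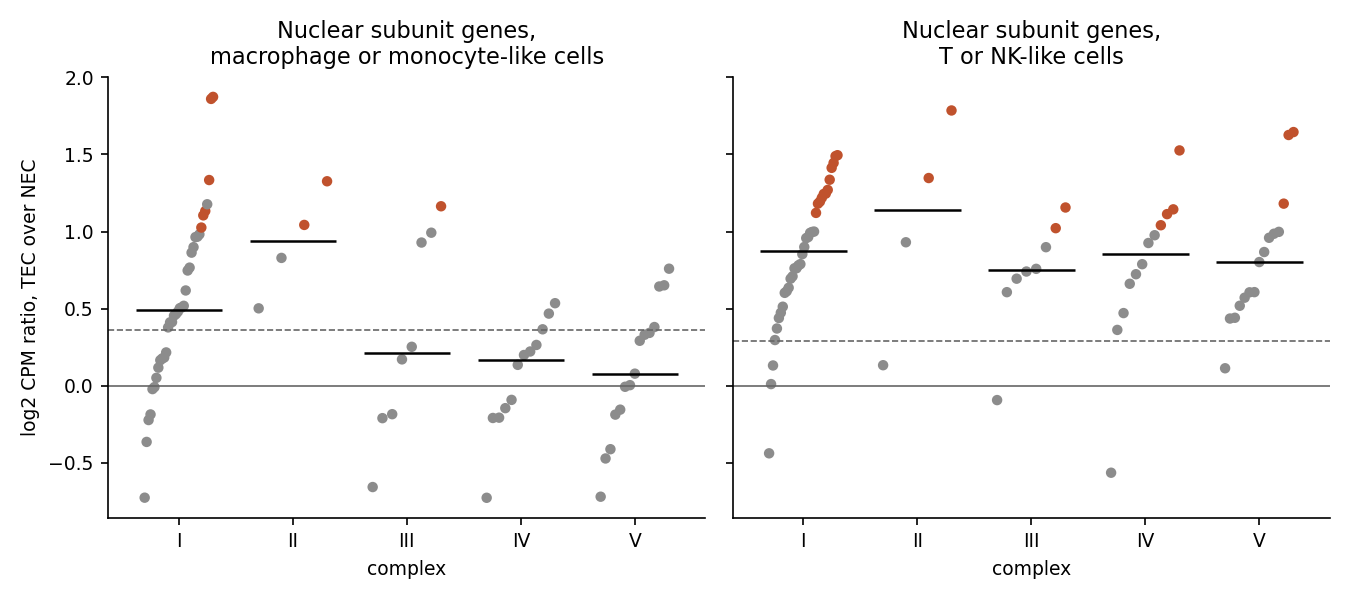
log2 ratio of CPM, TEC over NEC (vertical), of each nuclear subunit gene with at least 50 UMIs by complex (horizontal), in macrophage or monocyte-like (left) and T or NK-like cells (right). Orange points meet the size rule, black bars are medians per complex and the dashed line is the median of all genes (0.36 and 0.29); T or NK-like points lie mostly above it, and the macrophage medians of complexes III to V lie below it.

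Some of these counts are uncertain because other genes carry nearly the same sequence. Up to 400 bases at the end of the longest coding transcript of each member were compared by sequence search with all annotated mouse transcripts. For 16 of 88 nuclear members another gene matched over at least 100 bases at 95% identity or more, among them Atp5l with 11 such genes, Cox7c with 4, and Ndufs3, Ndufs5, Atp5c1, Atp5f1 and Uqcrb. Only the copies of Atp5b, Atp5h and Atp5l have a row in the table. For 7 of 13 mitochondrially encoded members a matching transcript elsewhere was found, none with a row.

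The promoters of the nuclear members were read for motifs known from respiratory genes, as a description of what members share beyond the naming rule. The window was 300 bases, 250 before to 50 after each start, from RefSeq on GRCm38.p6, and 74 of 88 nuclear members had an entry. The motif of nuclear respiratory factor 1, spelled GCGCA, any base and GCGC and read like the others on both strands, was present in 19 of the 74, 25.7%, and in 5.19% of all 27025 genes with a window. The ETS-type motif CCGGAAGT was in 5 (6.76%, against 4.31% of all genes) and the YY1-type motif AAGATGGC in 11 (14.9%, against 3.19%). At least 1 of the motifs was in 44.6% of members and 11.7% of all genes. These shares of all genes cover every gene with a window and are not limited to the 13774 genes of the count table. Matches were counted separately, and matches of different motifs that overlap were not removed.

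A few windows, the last 120 bases before the start, show how these motifs lie in some members that carry one there. The motif or its reverse complement is in capitals. Members without a match before the start are not shown. They include Sdhb, with the highest nuclear ratio in T or NK-like cells, and Ndufs4 and Ndufa9, with the highest in macrophages. Matches after the start are not counted here. Sdha and Sdhd belong to the same complex and had ratios of 1.10 and 2.54 in T or NK-like cells; Ndufs6 and Ndufa8 had 2.37 and 2.29, Atp5j 3.13 and Uqcrh 0.938. Sdha, Sdhd, Ndufs6 and Ndufa8 carry the nuclear respiratory factor 1 motif, Atp5j that of YY1, at 1 of its 2 starts, and Uqcrh that of ETS factors. The stretches are chr13:74350241-74350360, chr9:50603850-50603969, chr13:73328483-73328602, chr2:36049339-36049458, chr16:84834977-84835096 and chr4:116075071-116075190, in that order of genes, and all lie on the minus strand.
Sdha: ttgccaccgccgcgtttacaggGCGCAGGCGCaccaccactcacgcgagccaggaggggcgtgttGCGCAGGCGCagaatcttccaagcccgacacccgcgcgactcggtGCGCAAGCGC
Sdhd: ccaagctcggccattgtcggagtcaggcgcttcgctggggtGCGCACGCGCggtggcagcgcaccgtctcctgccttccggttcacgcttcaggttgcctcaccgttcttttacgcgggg
Ndufs6: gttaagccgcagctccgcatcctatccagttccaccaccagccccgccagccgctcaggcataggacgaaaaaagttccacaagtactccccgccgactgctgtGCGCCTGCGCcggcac
Ndufa8: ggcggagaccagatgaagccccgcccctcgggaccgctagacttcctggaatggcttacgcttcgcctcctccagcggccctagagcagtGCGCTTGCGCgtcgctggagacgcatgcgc
Atp5j: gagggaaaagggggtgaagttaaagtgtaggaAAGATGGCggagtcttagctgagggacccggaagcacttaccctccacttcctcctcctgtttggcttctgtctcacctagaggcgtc
Uqcrh: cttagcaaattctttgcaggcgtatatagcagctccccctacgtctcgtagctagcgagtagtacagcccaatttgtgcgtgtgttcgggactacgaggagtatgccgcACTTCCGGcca
Ratios of members with and without a motif were set side by side, and their differences were not tested. The median log2 ratio in T or NK-like cells was 0.78 over the 31 measured members with at least 1 motif and 0.96 over the 35 with none, and in macrophages it was 0.41 and 0.27. The 10 members with the YY1-type motif had 1.26 in T or NK-like cells and 0.58 in macrophages, and the 18 with the nuclear respiratory factor 1 motif 0.71 and 0.43. The 5 with the ETS-type motif had 0.76 and -0.21. A match describes letters and is not a bound site.

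The 3 clusters shared by both libraries gave the comparison within narrower groups of cells. Cluster 6, monocyte-like cells with Ace and Treml4 (97 in NEC and 32 in TEC), had the smallest difference in the mitochondrially encoded sum, 24574 and 19187 CPM (0.781, 0.754 to 0.809), with 3 of 10 members lower, against 6.08% of all genes. None of its 60 nuclear members met the size rule, against 10.0% of genes higher and 6.08% lower, and the nuclear ratio was 1.06 (1.03 to 1.10), or 0.957 with NEC cells of at least 4000 UMIs. The immediate early and stress genes summed to 2271 CPM in NEC and 3333 CPM in TEC for this cluster, with Hspa1a, a heat shock gene, at 1 and 66 UMIs (3.025 and 249.7 CPM); their part in the result was not tested. With Scrublet calls kept, the clustering changed, and the matching cluster had 5 of 79 members higher and 1 lower. Of all 1822 genes measured in it, 223 were higher and 100 lower.

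Cluster 7, T cells with Tnfrsf4, Ctla4 and Il2ra (88 and 28 cells), had 33214 and 20349 CPM in the mitochondrially encoded sum (0.613, 0.594 to 0.632) and 17991 and 26844 CPM in the nuclear sum (1.49, 1.44 to 1.54). Of its 68 nuclear members 23 were higher, against 21.1% of all genes, and 0 lower, against 13.4%; of 10 mitochondrially encoded members 2 were lower. With the trimmed-mean scaling 13 of all 78 members were higher and 4 lower, in place of 23 and 2. Of all 1466 genes, 198 were then higher and 251 lower. At a Leiden resolution of 0.4, where the matching cluster had 85 members measured, 12 were higher and 7 lower. Of all 2951 genes measured in that cluster, 630 were higher and 288 lower. Atp5j (190 and 614 CPM, ratio 3.23), Atp5b (377 and 924 CPM, 2.45), Ndufs6 (66.9 and 269 CPM, 4.03) and Uqcrc1 (49.3 and 194 CPM, 3.94) were among those higher. Of the immediate early genes that mark tissue dissociation, 12 of 14 measured in this cluster were lower in TEC. Malat1 was at 25488 and 10169 CPM, and the proliferation markers summed to 313 and 1581 CPM and the macrophage markers to 106 and 2510 CPM; their part in the result was not tested.

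Cluster 12, led by Ccl22 and Il12b with markers of both dendritic and T cells (22 and 55 cells), had a mitochondrially encoded ratio of 0.549 (0.526 to 0.574) and a nuclear ratio of 1.13 (1.08 to 1.19), which was 0.945 with the trimmed-mean scaling. Of 63 nuclear members 8 were higher, against 19.6% of all genes, and 0 lower, against 5.46%, and 3 of 9 mitochondrially encoded members were lower. With that scaling 2 of all 72 members were higher and 7 lower, in place of 8 and 3. Of all 1429 genes, 182 were then higher and 129 lower. Sdhb (46.2 and 131 CPM, 2.83) and Sdhd (27.7 and 98.0 CPM, 3.54) of complex II were among those higher, from 5 and 3 UMIs in NEC. Malat1 stood at 77418 CPM (NEC) and 28633 CPM (TEC), and the macrophage markers at 102 and 2101 CPM. A UMI of the T cell markers Cd3e, Cd3d or Cd3g was found in 1 of the 22 NEC cells and 18 of the 55 TEC cells. The immediate early and stress genes summed to 5244 and 2796 CPM, with 3 of 11 measured lower by the size rule: Hspa1a (729 and 122.5 CPM), Atf3 (526 and 112 CPM) and Fos (674 and 214 CPM). The part of these genes and markers in the result was not tested.

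In macrophages the nuclear level differed by cell depth. From NEC macrophages with 1000 to 2000 UMIs to those with 6000 to 8000, the nuclear sum went from 15493 to 22504 CPM over 4 depth ranges, while the mitochondrially encoded sum stayed between 24812 and 28898 CPM; the part of depth in the difference between libraries was not tested. In cells with 6000 to 8000 UMIs, the 27 NEC macrophages had 27631 CPM mitochondrially encoded and 22504 CPM nuclear, and the 346 TEC macrophages 15386 and 21309 CPM. The mitochondrially encoded ratio there was 0.557. The T or NK-like NEC cells showed little of this. Their nuclear sum was nearly level with depth, 13413 to 14014 CPM from 1000 to 6000 UMIs. The T or NK-like TEC cells had 23367 CPM at 6000 to 8000 UMIs. No depth range held at least 20 T or NK-like cells of both libraries, so depth could not be matched for this class.

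**Figure D5:**
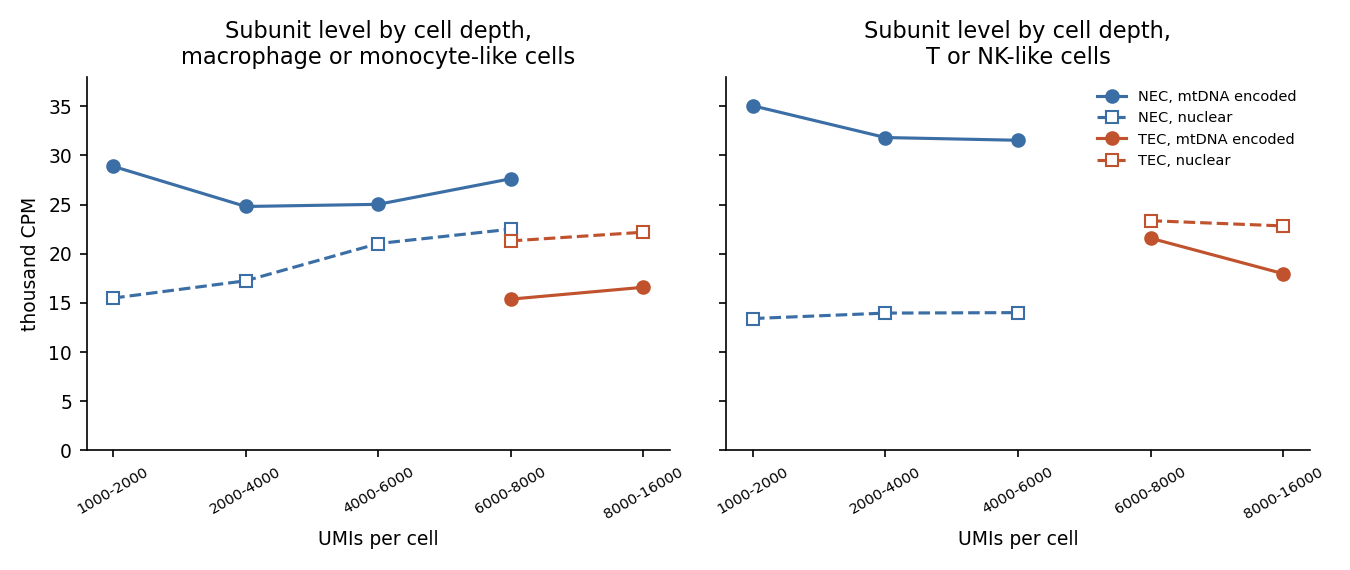
Summed subunit level (vertical, CPM in units of 1000) by UMIs per cell (horizontal) in ranges with at least 20 cells, for macrophage or monocyte-like (left) and T or NK-like cells (right); filled circles are mitochondrially encoded and open squares nuclear, NEC in blue and TEC in orange. At 6000 to 8000 UMIs the mitochondrially encoded levels of macrophages are 27631 CPM in NEC and 15386 CPM in TEC, while the nuclear levels are 22504 and 21309 CPM.

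Single cells spread widely around these sums. The mitochondrially encoded share of a macrophage's UMIs had a median of 2.42% in NEC (quartiles 1.85 and 3.15) and 1.51% in TEC (0.972 and 2.16), and the nuclear share 1.76% (1.41 and 2.19) and 2.16% (1.84 and 2.51). For T or NK-like cells the mitochondrially encoded medians were 3.15% and 1.76%, and the nuclear quartiles did not overlap: 1.19 and 1.58% in NEC, 2.03 and 2.58% in TEC.

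Other genes of the same machinery were read in the same comparisons. Among electron carriers and subunits outside the naming rule, AA467197 (Nmes1), a paralogue of Ndufa4, was at 140 and 595 CPM in macrophages (4.26, 3.64 to 5.02) and at 8.35 and 200 CPM in T or NK-like cells, a ratio of 24.0 (14.6 to 42.0), from 17 and 210 UMIs. TEC T or NK-like cells held macrophage marker UMIs, and the part of macrophage UMIs in this ratio of AA467197 was not tested. Cytochrome c1, Cyc1, was higher in both (2.32 and 2.10), and 7 of 9 measured genes of this list were higher in T or NK-like cells and 2 of 9 in macrophages. Of 72 mitochondrial ribosomal protein genes measured in macrophages 28 were higher and 1 lower (median log2 0.85), and of 67 in T or NK-like cells 19 were higher and 0 lower (median log2 0.74). Of the citric acid cycle list 7 of 15 were higher in macrophages, among them Idh3a (4.98) and Sucla2 (4.56), and 3 of 14 in T or NK-like cells. Of 24 further assembly factors 8 were higher in macrophages, among them Sdhaf2 (4.63), which attaches flavin to Sdha, and 4 of 17 in T or NK-like cells.

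The genes that copy and transcribe mitochondrial DNA were sparsely counted. Tfam, which packages it and starts its transcription, was at 10.4 CPM in both NEC and TEC macrophages (1.01, 0.528 to 2.08) and at 27.0 and 30.5 CPM in T or NK-like cells (1.13, 0.707 to 1.78). Of the 5 measured genes of this list 1 was higher in macrophages, and 2 were higher and 1 lower in T or NK-like cells. None of the 6 and 3 measured regulators of mitochondrial biogenesis met the size rule. Of mitochondrial import genes 4 of 14 were higher in macrophages and 4 of 13 in T or NK-like cells. Among the uncoupling and antioxidant genes 1 of 11 was higher in macrophages, Prdx5 (520 and 1183 CPM, 2.27), and 7 of 11 in T or NK-like cells, with Prdx5 at 6.04, Ucp2 at 106 and 236 CPM (2.23) and Sod2 at 66.3 and 165 CPM (2.49); in macrophages Ucp2 had a ratio of 0.757. The part of macrophage UMIs in the T or NK-like ratio of Prdx5, which was at 1183 CPM in TEC macrophages, was not tested. All these counts stand against the same shares of all genes as above, 23.1% higher in macrophages and 25.3% in T or NK-like cells.

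Cluster 5 held 205 TEC and 4 NEC cells, too few in NEC to compare. It was led by Rhox5, Nppb and Cav1, had a median of 37749 UMIs in TEC and a pan-leukocyte marker sum of 127 CPM, and it was given no name. Its mitochondrially encoded sum was 16575 CPM and its nuclear sum 24129 CPM, beside 16211 and 22020 CPM in TEC macrophages. The 2 groups differed most in complex III, where mt-Cytb was at 1843 CPM in cluster 5 and 948 CPM in TEC macrophages, and there were 0.692 (0.679 to 0.706) mitochondrially encoded UMIs per nuclear one against 0.406 (0.392 to 0.420). Of all mitochondrially encoded UMIs mt-Cytb took 11.1% and 5.85%, mt-Nd2 3.45% and 1.61%, and mt-Co3 12.2% and 18.2%. Among nuclear members Atp5b reached 1008 CPM in cluster 5, against 507 CPM in TEC macrophages. In cluster 5 cells with 8000 to 16000 UMIs, 29 in number, the mitochondrially encoded sum was 26507 CPM and the nuclear sum 20129 CPM, and in the 171 cells above 16000 UMIs 16203 and 24289 CPM.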

How the data were processed

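Single-cell counts of 2 libraries were analysed. The submitters' processing notes name the build mm10, Seurat, STAR 2.5.1b and Cell Ranger 2.0.2, without their settings. The deposited table holds raw UMI counts by gene and cell, as made by the authors. Each cell's name starts with its library; reading "control" as NEC rests on that word alone.

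Cells were required to have 500 genes, 1000 UMIs and a mitochondrial share of 10% or less (5 NEC cells removed), and Scrublet in scanpy 1.11.5 removed 7 NEC and 3 TEC cells. Clusters came from 2000 variable genes (members left out), 30 principal components, 15 neighbors and Leiden resolution 0.8. Naming a cluster took 3 or more fixed markers, each in at least 10% of its cells, at 50 CPM or above and 2-fold over all remaining cells (5 CPM added to both). Cluster 5 met this for 3 fibroblast markers against its leading genes and stayed unnamed, and cluster 12 tied between classes.

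UMIs were summed per library and class. CPM has exact Poisson intervals and ratios have exact Clopper-Pearson intervals conditional on the total, at 95%; they cover counting error only. Members with fewer than 50 UMIs over both sums have no ratio. The size rule was also run on simulated Poisson counts. These hold no spread between cells, animals or libraries, so they cannot speak to the lack of replicates. Near-identical copies were searched with BLAST in GENCODE M21 transcripts, in which all 101 members were placed, 1 by a synonym. numpy 2.4.6, scipy 1.17.1 and pandas 2.3.3 were used.

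Members, gene lists, markers and named genes were chosen with earlier results of these data known. Named are all mitochondrially encoded members, the 3 most counted nuclear members per complex, isoform pairs, members that meet the size rule, and up to 4 per other list; a few further genes are named after their values were seen (Ndufa1, Ndufa6, Ndufa8, Sdha, Uqcrb, Uqcrc2, Uqcr11, Atp5c1, Atp5e).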

Additional observations from a re-analysis of the deposited data

How the results depend on the processing

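The ratio of mitochondrially encoded subunits stayed below 1 under every setting run: in macrophages it was 0.483 with trimmed-mean scaling, 0.602 as a mean over cells, 0.604 with NEC cells of at least 4000 UMIs, 0.632 at a limit of 5% mitochondrial UMIs, 0.599 with no limit, 0.557 for cells with 6000 to 8000 UMIs and 0.642 without the interferon-led cluster, and in T or NK-like cells 0.458 (scaling), 0.585 (at least 4000 UMIs), 0.589 (5% limit) and 0.599 (few macrophage UMIs). The nuclear ratio in T or NK-like cells stayed above 1, at 1.34, 1.56, 1.64 and 1.83 under the same 4. The nuclear ratio in macrophages changed direction with the scaling (0.854), with NEC cells of at least 4000 UMIs (0.983) and at 6000 to 8000 UMIs (0.947), and was 1.16 as a mean over cells and 1.11 without the interferon-led cluster. The number of members higher in macrophages, 10 of 91, became 3 with the scaling and 24 at a ratio of 1.5. It became 6 of 91 with NEC cells of at least 4000 UMIs and 5 of 86 at 6000 to 8000 UMIs. Of all 6434 genes, 1484 were higher, 876 with the scaling and 2161 at 1.5. With at least 4000 UMIs 1366 of 6238 genes were higher, and at 6000 to 8000 UMIs 850 of 4346. The number of members lower, 7, became 13 with the scaling and 16 at 1.5. Of all 6434 genes, 452 were lower, 810 with the scaling and 817 at 1.5. Nuclear ratios turned to 0.957 in cluster 6 (at least 4000 UMIs) and 0.945 in cluster 12 (scaling). For single genes, 458 values under the alternatives kept their call, 48 lost it and 7 gained it. The depth range, the interferon-led cluster and the macrophage UMI limit were chosen after seeing the data. Clusters 7 and 12 gave no value with NEC cells of at least 4000 UMIs, cluster 12 at the 5% limit and cluster 7 with few macrophage UMIs, for want of 20 cells. The cause of these changes was not tested. No paired analysis was possible because each group is 1 library. Members under 50 UMIs over both sums, such as mt-Nd6, have no ratio at this depth.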
